A study of Mus musculus with 30 samples.

Results

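The genes described here mark hepatic stellate cells and the perivascular cells related to them. They are 10 genes, Reln, Hgf, Pdgfrb, Ngfr, Lrat, Acta2, Tagln, Des, Dcn and Rgs5, of 18193 genes that had at least 1 probe set of their own on a whole-genome mouse oligonucleotide array. A probe set is a group of short probes that together give 1 expression level. The members were taken by symbol, which gave 24 of 45101 probe sets, and each gene was represented by the probe set with the highest mean over the 30 arrays. These were 1449465_at for Reln, 1442884_at for Hgf, 1436970_a_at for Pdgfrb, 1454903_at for Ngfr, 1444487_at for Lrat, 1416454_s_at for Acta2, 1423505_at for Tagln, 1426731_at for Des, 1449368_at for Dcn and 1417466_at for Rgs5. Pregnant CD-1 mice, an outbred stock, were dosed by gavage from gestation day 1 to gestation day 17 with perfluorooctane sulfonate (PFOS, given as the potassium salt), a persistent fluorinated surfactant. At gestation day 18 the lung and a portion of the liver were taken from the fetuses, and RNA of 3 fetuses of a litter was pooled on each array. Each tissue had 5 litters whose dams received the vehicle alone (0.5% Tween 20, dose 0), 5 litters at the low dose of 5 mg/kg/day and 5 litters at the high dose of 10 mg/kg/day. The labels do not say whether a liver and a lung pool came from the same litter. The replicate was the litter, so a value describes a pool of fetuses rather than a fetus.

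Hepatic stellate cells lie between the hepatocytes and the sinusoidal endothelium, store vitamin A as retinyl esters, and are pericytes of the sinusoid. In the developing liver they and other mesenchymal cells are sources of growth factors and matrix, and when activated they take on features of contractile myofibroblasts. None of the 10 genes is confined to these cells: smooth muscle, fibroblasts, pericytes, nerve and muscle of other organs express several of them. In lung the 10 genes can thus mark other cells, and which cells was not tested.

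All 10 members had a probe set above the 40th percentile of an array (4.16 to 4.23 on the log2 scale) on at least 5 of the 15 arrays of each tissue, and 17 of the 24 probe sets did so in liver and 16 in lung. Changes are differences of log2 levels, so a change of 1 is a doubling, and a gene was called where the limma test gave a Benjamini-Hochberg adjusted p under 0.05 over all genes tested. In bulk tissue, fewer cells of a type and less RNA per cell cannot be told apart. The tissue labels held: the mean of the hepatocyte genes was 12.41 to 12.69 in liver and 7.92 to 9.91 in lung, and that of the lung epithelial genes was 4.76 to 5.33 in liver and 10.18 to 10.55 in lung. Liver litters 2, 3 and 5 at dose 0 stood apart, because stomach genes were high in them. Cym, the milk-clotting protease chymosin of the newborn stomach, was 11.27, 9.50 and 8.20 in these litters and 4.23 to 5.60 in the other 12 liver pools, and Pga5, a pepsinogen, was 7.60 to 10.87 against 3.32 to 3.79. The mean of 12 stomach genes was 5.55 to 6.61 in these litters and 4.51 to 4.81 in the other 12, and 4 of the 12 genes were higher in all 3 litters than in every other liver pool. The changes of the members in liver against dose 0 are given without these 3 litters too, which leaves 2 litters at dose 0, and for several genes with the stomach mean as a covariate.

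Promoter sequences are shown for Reln, which fell in liver at both doses, and for Acta2, whose level moved together with that of Tagln. They are RefSeq promoters on GRCm38.p6, from 250 bases before to 50 bases after the annotated start, printed 5′ to 3′ on the gene's strand. The window of Reln lies at chr5:22344656-22344955 on the minus strand, and capitals mark the matches to GGGCGG. The window of Acta2 lies at chr19:34255324-34255623 on the minus strand, and capitals mark the matches to the CArG box, the motif known to bind serum response factor, with 1 mismatch allowed in the A/T core.
Reln: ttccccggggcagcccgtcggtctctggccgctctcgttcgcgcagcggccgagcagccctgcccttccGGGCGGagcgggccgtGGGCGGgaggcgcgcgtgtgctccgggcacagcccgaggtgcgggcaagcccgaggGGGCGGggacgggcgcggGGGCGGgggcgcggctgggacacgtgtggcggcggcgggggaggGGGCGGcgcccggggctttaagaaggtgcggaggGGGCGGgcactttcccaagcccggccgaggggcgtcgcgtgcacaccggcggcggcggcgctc
Acta2: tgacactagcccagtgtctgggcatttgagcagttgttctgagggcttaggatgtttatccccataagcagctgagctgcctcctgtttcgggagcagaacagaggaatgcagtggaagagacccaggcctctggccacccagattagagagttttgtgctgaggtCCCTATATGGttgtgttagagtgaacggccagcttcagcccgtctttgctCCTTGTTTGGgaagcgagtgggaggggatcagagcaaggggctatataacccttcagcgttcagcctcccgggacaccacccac
Reln held 6 matches to GGGCGG, at positions -181 to -8 from the start, and none to the CArG box. At least 1 match to GGGCGG on either strand was found in 35.7% of 32851 promoters of this length, and 6 or more in 1.35%. Acta2 held 2 CArG matches, CCCTATATGG at -84 to -75 and CCTTGTTTGG at -34 to -25, and none to GGGCGG. A CArG match was found in 9.98% of promoters with the mismatch allowed and in 1.63% without it. Of the other members with a window, Lrat held 1 CArG match with a mismatch and 2 of GGGCGG, Ngfr held 4 of GGGCGG and Des 2, and Hgf and Rgs5 held neither motif. Tagln, Dcn and Pdgfrb have no sequence shown. A match describes the letters and is not a shown binding site.

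The first comparison set unexposed liver against unexposed lung, to give each member's level by tissue. Reln, the secreted glycoprotein reelin, and Lrat, the enzyme that esterifies retinol for storage, were the members furthest above their lung levels in liver. Dcn, Ngfr and Hgf were also higher in liver. Pdgfrb, Acta2, Tagln, Rgs5 and Des were higher in lung. All 10 were called, 5 higher and 5 lower in liver, and over the 13856 genes tested 83% were called, 42.6% higher and 40.4% lower, so the share called is no feature of these genes. The groups did not overlap for any of the 10, where 69.9% of all genes did not.

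Reln was 9.62, 9.47, 9.59, 9.54 and 9.46 in the 5 unexposed livers, against 6.39, 5.82, 6.18, 6.29 and 6.09 in the 5 unexposed lungs. The difference of 3.38 (SE 0.11) was a 10.4-fold higher signal in liver, with a limma adjusted p of 1.19e-21. Its second probe set was dim, at 2.10 to 2.87 over all arrays, and never passed the filter. Averaging both probe sets gave a difference of 1.85. Lrat was 5.68, 6.47, 6.44, 6.47 and 6.17 in liver, against 3.43, 3.69, 4.18, 3.80 and 4.43 in lung, a 5.06-fold difference (2.34, SE 0.19). The lung values of Lrat lie near the floor of the scale, where 7 of the 15 lung arrays were above the percentile, and array levels near the floor understate a difference. Hgf, hepatocyte growth factor, was higher in liver by 1.14 (SE 0.12), and its other 2 probe sets gave 1.39 and 1.24. Ngfr, the p75 neurotrophin receptor found on stellate and neural crest cells, was higher in liver by 1.22 (SE 0.12). Dcn, the matrix proteoglycan decorin, was 9.16 to 9.48 in liver against 7.44 to 8.42 in lung (1.43, SE 0.24).

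Pdgfrb, the receptor through which platelet-derived growth factor recruits pericytes, was 7.10, 6.66, 7.35, 7.04 and 6.84 in unexposed liver, against 10.05, 9.95, 10.07, 10.17 and 10.03 in unexposed lung. The difference was -3.05 (SE 0.11, limma adjusted p 1.89e-20), and -2.17 by its other probe set. Acta2, smooth muscle alpha-actin, differed by -1.66 (SE 0.20), and Tagln, the actin-binding protein transgelin, by -1.56 (SE 0.14). A second Acta2 probe set, which stayed near the floor in both tissues, went the other way (0.47, SE 0.10). Rgs5, a regulator of G protein signalling typical of pericytes, differed by -1.42 (SE 0.24), and its other 2 tested probe sets by -1.57 and -0.77. Des, the muscle and stellate cell intermediate filament desmin, was 5.06 to 5.49 in liver and 5.97 to 6.66 in lung, a difference of -1.02 (SE 0.18). Desmin is also a protein of heart muscle, and the mean of the cardiac muscle genes was 3.90 to 4.01 in unexposed liver and 6.68 to 9.20 in unexposed lung. With that mean as a covariate the Des difference was 0.07 (SE 0.25, adjusted p 0.803), while those of Acta2 (-0.90), Hgf (0.52) and Dcn (2.37) stayed called in their own direction. Over all doses that mean was 3.74 to 4.54 in liver and 6.35 to 10.38 in lung. As the tissues do not overlap in it, this fit cannot separate heart muscle from the tissue difference. All 10 kept their call and direction without the 3 livers high in stomach genes.

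**Figure D1:**
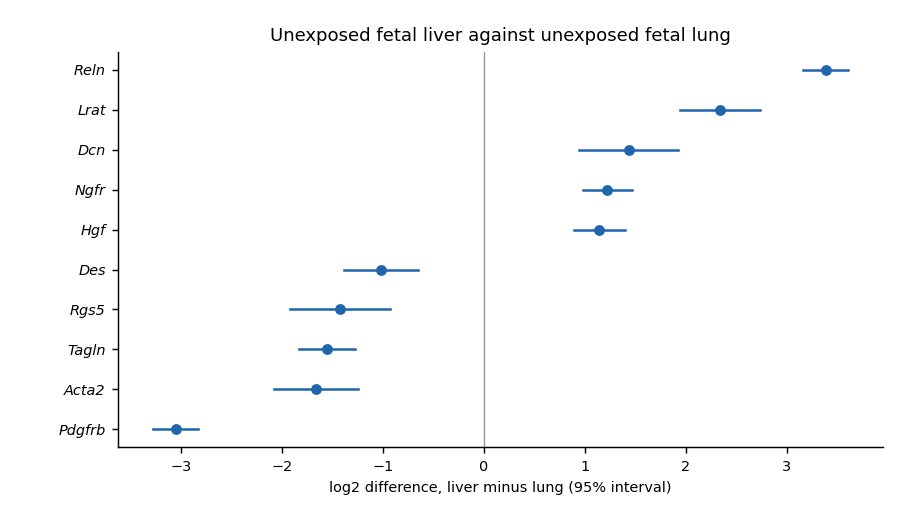
Difference of log2 level between unexposed fetal liver and unexposed fetal lung for the 10 genes (points) with its unadjusted 95% interval (bars), from 5 litters of each tissue. Reln (3.38) lies at the liver end and Pdgfrb (-3.05) at the lung end, and no interval reaches 0.

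In liver, 3 of the 10 genes were called at the high dose against dose 0, and all 3 fell: Reln by 0.44, Tagln by 0.35 and Dcn by 0.31 on the log2 scale. No member rose. Over all 13269 genes tested in liver, 10.5% were called, 5.22% of all genes lower, and the median change of the members was -0.22 against -0.02 for all genes. The members' median was -0.10 without the 3 litters high in stomach genes, against -0.03 for all genes, with Reln called and 1.33% of all genes called lower. At the low dose Reln and Tagln fell, 2 of 10 members, against 6.07% of all genes called and 1.81% called lower, with a median of -0.11 against -0.01, and without the 3 litters no member was called and the median was -0.08. The dose groups share their controls, so the changes at both doses are not separate evidence.

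Reln was 9.62, 9.47, 9.59, 9.54 and 9.46 in liver at dose 0, 9.34, 9.17, 9.20, 9.35 and 9.21 at the low dose, and 9.18, 9.14, 9.07, 9.08 and 9.0 at the high dose. The means were 9.54 ± 0.07, 9.25 ± 0.09 and 9.09 ± 0.07 in the order of dose (SD, n = 5 litters each). Every litter at either PFOS dose was below every litter at dose 0, while the low and high dose overlapped at 9.17 and 9.18. Groups that did not overlap with dose 0 were seen for 9.04% of all genes at the high dose and 7.6% at the low dose, and Reln was the 1 member among them. The change at the high dose was -0.44 (SE 0.06, 95% interval -0.57 to -0.32), which is 0.735 times the level at dose 0, with a limma adjusted p of 9.36e-05. By p it ranked 154 of 13269 genes. The low dose gave a change of -0.28 (SE 0.06, limma adjusted p 0.00728), 0.821 times the level at dose 0. The fall at the high dose was as large without the 3 litters high in stomach genes (-0.49, adjusted p 0.00364) and with the stomach covariate (-0.48, adjusted p 0.000659). The low dose gave -0.33 without them, with an adjusted p of 0.0535, and -0.32 (adjusted p 0.0224) with the covariate. Averaging Reln with its dim second probe set gave -0.25 (adjusted p 0.0164) at the high and -0.12 (adjusted p 0.313) at the low dose, and both tissues in 1 fit gave an adjusted p of 0.110 at the low dose.

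**Figure D2:**
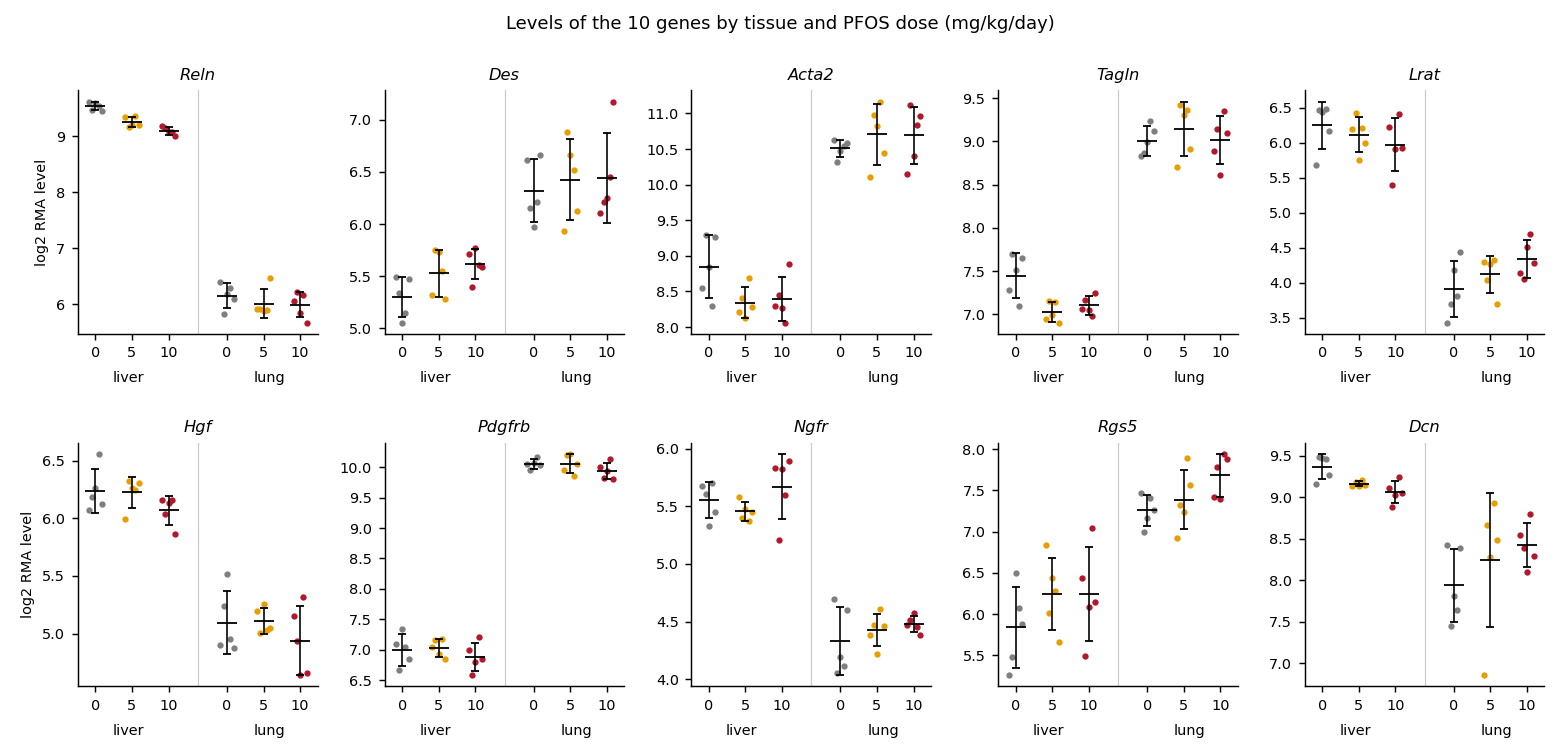
Log2 level of each of the 10 genes in every litter (points) by tissue and PFOS dose in mg/kg/day, with the mean and SD of the 5 litters (bars). In liver the Reln points at 5 and 10 mg/kg/day all lie below those at dose 0 (9.46 to 9.62), while in lung the 3 doses overlap for every gene.

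Dcn, which binds collagen fibrils and transforming growth factor beta, was 9.16, 9.48, 9.48, 9.47 and 9.27 at dose 0, 9.14, 9.19, 9.14, 9.21 and 9.14 at the low dose, and 9.11, 8.89, 9.03, 9.25 and 9.06 at the high dose. The means were 9.37 ± 0.15, 9.17 ± 0.03 and 9.07 ± 0.13 by dose (SD, n = 5 litters each). All 5 litters at the high dose were below the mean of dose 0, and the groups overlapped through litter 4 at the high dose and litter 1 at dose 0. The fall was 0.31 (SE 0.08, limma adjusted p 0.0170), and at the low dose Dcn differed by -0.21 (adjusted p 0.129). Without the 3 litters high in stomach genes Dcn differed by -0.25 at the high dose (adjusted p 0.233), and with the covariate by -0.24 (adjusted p 0.154). Averaged with its dim second probe set it differed by -0.11 (adjusted p 0.491), and the call was also lost with both tissues in 1 fit (adjusted p 0.472).

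Of the contractile genes Tagln fell in liver at both doses, and Acta2 was not called. Tagln was 7.28, 7.70, 7.51, 7.09 and 7.66 at dose 0, 6.94, 7.16, 7.0, 7.15 and 6.90 at the low dose, and 7.06, 7.16, 7.05, 6.98 and 7.25 at the high dose. Acta2 was 8.55, 9.29, 8.85, 8.29 and 9.26 at dose 0, 8.21, 8.40, 8.13, 8.69 and 8.28 at the low dose, and 8.30, 8.45, 8.26, 8.06 and 8.89 at the high dose. By dose Tagln averaged 7.45 ± 0.26, 7.03 ± 0.12 and 7.10 ± 0.11 and Acta2 8.85 ± 0.44, 8.34 ± 0.22 and 8.39 ± 0.31 (SD, n = 5 litters each). For both genes the 3 highest litters at dose 0 were litters 2, 3 and 5, those high in stomach genes. Litters 1 and 4 at dose 0 lay within the range of the low dose for Acta2, and for Tagln litter 4 did and litter 1 lay just above the exposed litters, where the highest value was 7.25.

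Tagln fell by 0.35 at the high dose (SE 0.10, limma adjusted p 0.0440) and by 0.42 at the low dose (SE 0.10, adjusted p 0.0237). Acta2 differed by -0.46 (SE 0.19, 95% interval -0.86 to -0.06, adjusted p 0.147) at the high dose and by -0.51 (adjusted p 0.135) at the low dose. Its second probe set above the filter, near the floor of the scale, averaged 4.59, 4.73 and 4.53 in the order of dose. Without litters 2, 3 and 5 at dose 0 the Tagln difference was -0.09 (adjusted p 0.733) at the high and -0.16 (adjusted p 0.529) at the low dose. Those of Acta2 were then -0.03 (adjusted p 0.963) and -0.08 on the log2 scale. Actg2, the smooth muscle gamma-actin of the gut wall, differed by -0.88 (adjusted p 0.195) at the high dose with all litters and by 0.13 without these 3. The Acta2 probe set is of a type whose probes can match several transcripts, and cross-hybridisation with Actg2 was not tested. The call of Tagln at the high dose was lost on leaving out any 1 of litters 1, 2, 3 and 4 at the high dose or litters 2, 3 and 5 at dose 0 (adjusted p 0.0564 to 0.114), and under 6 other settings (adjusted p 0.0524 to 0.0975). At the low dose it was lost without litter 1 or 5 of that dose or litter 2, 3 or 5 at dose 0 (adjusted p 0.0525 to 0.0672), and Acta2 was called without litter 4 at dose 0 (adjusted p 0.0488 at the high and 0.0432 at the low dose).

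**Figure D3:**
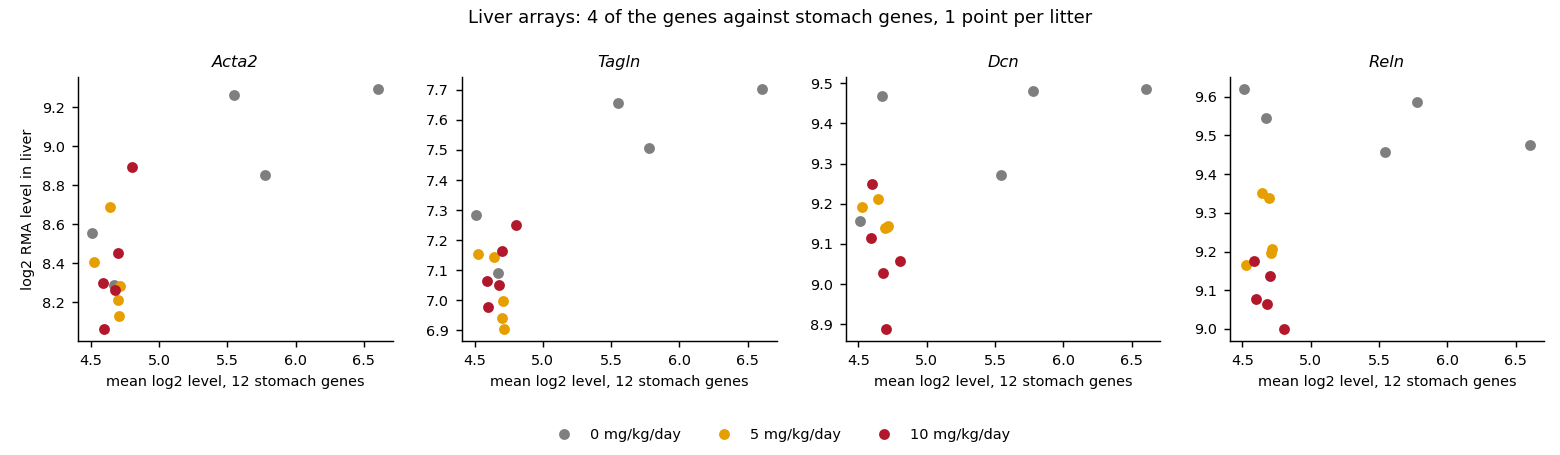
Log2 level of Acta2, Tagln, Dcn and Reln (vertical axes) against the mean log2 level of 12 stomach genes (horizontal axis) in the 15 liver pools, coloured by PFOS dose in mg/kg/day. The 3 pools at dose 0 with a stomach mean of 5.55 to 6.61 hold the highest Acta2 and Tagln levels of dose 0, while the Reln levels of all 5 pools at dose 0 lie above those of the exposed pools.

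The other 6 members were not called in liver at either dose. Des was 5.49, 5.34, 5.06, 5.14 and 5.48 at dose 0, 5.32, 5.75, 5.73, 5.55 and 5.28 at the low dose, and 5.71, 5.40, 5.77, 5.61 and 5.59 at the high dose. Every litter at the high dose was above the mean of dose 0, though the groups overlapped, and the difference was 0.32 (SE 0.11, limma adjusted p 0.0878) and 0.23 (adjusted p 0.282) at the low dose. Averaged with its second probe set, which did not pass the filter, Des was called higher at the high dose (0.24, adjusted p 0.0407). Rgs5 varied more between litters than the other members of liver, from 5.26 to 6.50 at dose 0, 5.66 to 6.83 at the low dose and 5.49 to 7.05 at the high dose. Its difference of 0.41 at the high dose had an interval of -0.19 to 1.0 (adjusted p 0.422).

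Lrat was 5.68 to 6.47 at dose 0, 5.75 to 6.43 at the low dose and 5.40 to 6.40 at the high dose, and differed by -0.27 (interval -0.67 to 0.12, adjusted p 0.415) at the high dose. Hgf was 6.07 to 6.56 at dose 0, 6.0 to 6.32 at the low dose and 5.86 to 6.16 at the high dose, and its 3 probe sets differed by -0.17, -0.20 and -0.13 at the high dose (adjusted p 0.299 for the first). Pdgfrb differed by -0.11 (interval -0.38 to 0.16, adjusted p 0.658) and Ngfr by 0.12 (interval -0.13 to 0.36, adjusted p 0.596) at the high dose. These intervals bound the change of Pdgfrb and Ngfr to less than 0.4 in size, and those of Rgs5 and Lrat are wider. A second Ngfr probe set that passed the filter in liver averaged 4.29, 4.39 and 4.31 in the order of dose. Differences at the low dose were -0.13 for Lrat, -0.01 for Hgf, 0.03 for Pdgfrb, -0.10 for Ngfr and 0.41 for Rgs5, with adjusted p from 0.474 to 0.964. The differences at the high dose without the 3 litters high in stomach genes were 0.30 for Des, 0.58 for Rgs5, -0.10 for Lrat, -0.24 for Hgf, -0.18 for Pdgfrb and -0.02 for Ngfr, and none was called.

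Between the high and the low dose in liver no member was called by limma, 1 of 10 had an unadjusted p under 0.05 where 7.8% of all genes had one, and 0.00754% of all genes were called. That member was Reln, lower at the high than at the low dose by 0.16 (SE 0.06, p 0.0144, adjusted p 0.563). Tagln and Acta2 differed by 0.07 and 0.05 between the doses, and Rgs5 had the same mean, 6.24, at both.

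**Figure D4:**
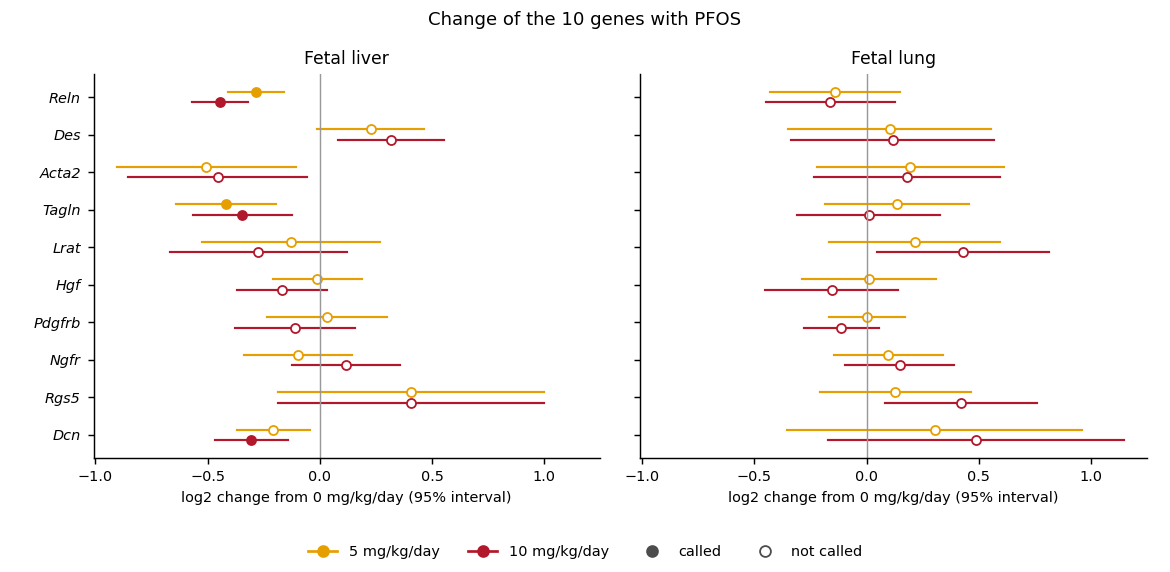
Change of log2 level against dose 0 for the 10 genes in liver and in lung at 5 and 10 mg/kg/day (points), with unadjusted 95% intervals (bars); filled points are those called by limma. The filled points are Reln and Tagln at both doses and Dcn at 10 mg/kg/day, all below 0 and all in liver.

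In lung no member was called at either dose, and for none did an exposed group stand clear of dose 0, where 1.23% of all genes did so at the high dose and 0.837% at the low dose. At the high dose 2 of 10 members had an unadjusted p under 0.05 by limma, where 6.91% of the 12897 genes tested in lung had one and 0.0543% were called. At the low dose no member had one, against 4.62% of genes, and 0.0155% of genes were called. Between the high and the low dose no member had one, against 2.3% of genes, and no gene was called (0%). The median change of the members was 0.13 at the high dose, against 0.01 for all genes tested.

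Rgs5 in lung was 7.46, 7.0, 7.17, 7.41 and 7.26 at dose 0, 6.93, 7.32, 7.24, 7.89 and 7.57 at the low dose, and 7.42, 7.78, 7.40, 7.94 and 7.88 at the high dose. All 5 litters at the high dose were above the mean of dose 0 and the ranges overlapped between 7.40 and 7.46, and the difference was 0.42 (SE 0.16, unadjusted p 0.0178, limma adjusted p 0.616), with 0.42 and 0.35 by its other 2 tested probe sets. Lrat was 3.43, 3.69, 4.18, 3.80 and 4.43 at dose 0, 4.30, 4.03, 4.26, 4.32 and 3.69 at the low dose, and 4.14, 4.05, 4.51, 4.70 and 4.27 at the high dose. The groups overlapped, most values were near the floor of the scale, and the difference at the high dose was 0.43 (SE 0.18, unadjusted p 0.0297, adjusted p 0.651).

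Dcn had the widest range of the 10 members over the 15 lung pools, at 8.42, 7.44, 7.80, 7.64 and 8.38 at dose 0, 6.85, 8.66, 8.28, 8.93 and 8.48 at the low dose, and 8.54, 8.39, 8.10, 8.80 and 8.29 at the high dose. The lowest value, in litter 1 at the low dose, came from a pool that stood apart in Apoa1, the hepatocyte gene of apolipoprotein A-I: litter 1 at dose 0 and at the low dose had 10.38 and 10.72, and the other 13 lung pools had 7.04 to 9.57. The mean of all hepatocyte genes lay closer, at 9.57 and 9.91 in these pools and 7.92 to 9.38 in the other 13. Dcn was 9.16 to 9.48 in unexposed liver, above its lung levels. Of the 2 pools high in Apoa1, litter 1 at dose 0 had the highest Dcn of its group (8.42) and litter 1 at the low dose the lowest of all lung pools (6.85). A part of liver RNA in the Dcn values was not tested. Dcn differed by 0.49 at the high dose (SE 0.31, adjusted p 0.804). Reln in lung was 5.82 to 6.39 at dose 0, 5.88 to 6.47 at the low dose and 5.67 to 6.22 at the high dose, and differed by -0.16 (interval -0.45 to 0.13) at the high dose. Acta2 differed by 0.18, Tagln by 0.01, Des by 0.12, Hgf by -0.16, Pdgfrb by -0.11 and Ngfr by 0.15 in lung at the high dose, with adjusted p from 0.823 to 0.995. The mean of the cardiac muscle genes ranged from 6.68 to 9.20 at dose 0, 6.35 to 8.70 at the low dose and 7.56 to 10.38 at the high dose in lung, and that of skeletal muscle genes from 3.67 to 4.69, 3.55 to 5.48 and 4.23 to 5.16, and their part in the lung values of Des and Acta2 was not tested beyond the covariate fits, in which no member was called.

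Whether the liver responded unlike the lung was tested as the difference of the changes in 1 fit of the 30 arrays. No member was called at the high dose, where 3 of 10 had an unadjusted p under 0.05 by limma, or at the low dose, where 2 of 10 had one. Over all genes tested 16% and 11.7% had an unadjusted p under 0.05 at these doses, and 3.89% and 2.06% were called. For Reln the liver change minus the lung change was -0.28 (interval -0.59 to 0.03, adjusted p 0.378) at the high dose and -0.14 (adjusted p 0.808) at the low dose, so the fall in liver is not shown to differ from the lung value. The differences at the high dose were -0.79 for Dcn (adjusted p 0.229), -0.70 for Lrat (adjusted p 0.176), -0.64 for Acta2 (adjusted p 0.265) and -0.35 for Tagln (adjusted p 0.380). The difference of Dcn was called when litter 1 was left out of every group (-0.95, adjusted p 0.0233, at the high and -1.03, adjusted p 0.0243, at the low dose). That exclusion was chosen after the values were seen. It takes out the lowest Dcn liver (9.16) and the highest Dcn lung (8.42) of dose 0. It also takes out the lowest Dcn lung of the low dose (6.85), so the call does not show an unlike response. At the low dose the Dcn difference was also called without litter 1 of exposed lung alone (-0.86, adjusted p 0.0366), against -0.51 (adjusted p 0.606) with all litters.

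The members were also set against each other over litters, with each value taken as its difference from its dose group mean. In liver Acta2 and Tagln varied together over the 15 litters (r 0.93, rho 0.90, permutation p 1e-05 and 2e-05, adjusted p 0.00045 and 0.0018 over 90 pairs in both tissues). The relation was r 0.92 without the 2 litters farthest out, and 0.85 without litters 2, 3 and 5 at dose 0. Lrat and Dcn also varied together in liver (r 0.90, rho 0.85, permutation p 1e-05 and 0.00011, adjusted p 0.00045 and 0.00495), with r 0.77 without the 2 litters farthest out and 0.91 without the 3 litters high in stomach genes. Averaging all probe sets of a gene gave 0.82 for Acta2 and Tagln and 0.45 for Lrat and Dcn. The smallest p that the permutations can give is 1e-05. Deviations were permuted freely between dose groups, with no allowance for the group means removed. A permutation p close to the threshold, as for the lung pairs, may thus be too small.

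In lung, Acta2 varied with Tagln (r 0.78, rho 0.73, permutation p 0.00068 and 0.00316, adjusted p 0.0204 and 0.0727) and with Rgs5 (r 0.75, rho 0.72, permutation p 0.0014 and 0.00323, adjusted p 0.0315 and 0.0727). Rgs5 varied with Dcn (r 0.71, rho 0.66, permutation p 0.00254 and 0.00838, adjusted p 0.0457 and 0.108). Averaging all probe sets of a gene gave r 0.75 for Acta2 and Tagln, 0.38 for Acta2 and Rgs5 and 0.59 for Rgs5 and Dcn. Without the 2 litters farthest out r was 0.73 and 0.59 for the pairs with Acta2, and 0.43 for Rgs5 and Dcn, whose relation was thus weaker without those litters. The litters left out were those farthest from the median of the first gene of a pair. For Rgs5 and Dcn r within the dose groups was 0.58, 0.85 and 0.47 in the order of dose. By Pearson's r 5 of 90 pairs passed, all positive, and by Spearman's rho the 2 liver pairs passed. The share of pairs of other genes that would pass was not computed, so the 5 are not shown to exceed it. Within liver the genes most alike to a member by r over the 15 litters, given as a description, were Actg2 (0.97) and Krt19, a biliary and gut epithelial keratin (0.91), for Acta2, Ccdc80 (0.90) for Dcn, Fyn (0.93) for Lrat, Dip2b (0.87) for Reln and Ccnq (0.92) for Rgs5. In lung they were Lum, the proteoglycan lumican (0.98), for Dcn and Myh11, smooth muscle myosin (0.93), for Acta2.

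The ligands, receptors and partners of the members moved in both directions in exposed liver. The reelin receptor gene Vldlr and Dab1, the gene of the adaptor that carries the reelin signal into the cell, rose, while Reln fell. Of 17 genes of this list tested at the high dose, 2 rose and 4 fell, with a median of -0.11, and at the low dose the 2 that rose were again Vldlr and Dab1. Of all genes tested in liver, 10.5% were called at the high and 6.07% at the low dose.

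Vldlr was 6.43, 6.08, 6.81, 6.94 and 7.01 in liver at dose 0, 7.97, 7.62, 7.75, 7.53 and 7.23 at the low dose, and 7.88, 7.74, 7.78, 8.41 and 7.67 at the high dose. All exposed litters were above all litters at dose 0, and the rise was 1.24 (SE 0.18, limma adjusted p 0.000308) at the high dose and 0.96 (SE 0.18, adjusted p 0.00423) at the low dose. Vldlr also encodes a receptor for triglyceride-rich lipoproteins. Averaged over its probe sets the rises were 0.76 and 0.52, both called. Dab1 was 4.28, 4.20, 4.24, 4.16 and 4.54 at dose 0, 4.53, 4.67, 4.77, 4.77 and 4.56 at the low dose, and 4.85, 4.68, 5.04, 4.83 and 4.68 at the high dose. It rose by 0.53 (SE 0.09, adjusted p 0.000764) at the high dose, with no overlap, and by 0.38 (SE 0.09, adjusted p 0.0156) at the low dose, where 1 control overlapped, and its levels were near the floor of the scale. Lrp8, the gene of the other reelin receptor, differed by -0.11 (adjusted p 0.633) and 0.01 (adjusted p 0.987).

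Without the 3 litters high in stomach genes Vldlr rose by 1.21 (adjusted p 0.00666) and Dab1 by 0.59 (adjusted p 0.00724) at the high dose. At the low dose Vldlr rose by 0.93 (adjusted p 0.0422), and the call was lost with the stomach covariate (0.80, adjusted p 0.0705). The call of Dab1 at the low dose was lost under both (0.44, adjusted p 0.0552, and 0.37, adjusted p 0.0973). The liver change minus the lung change was 1.25 for Vldlr and 0.56 for Dab1 at the high dose, with limma adjusted p of 0.000337 and 0.00147. Met, the receptor of hepatocyte growth factor, differed by -0.12 in liver at the high dose (adjusted p 0.275), and Pdgfra, the sister receptor of Pdgfrb, fell by 0.32 (SE 0.07, adjusted p 0.00932). The Pdgfra call was lost without the 3 litters (-0.29, adjusted p 0.127) and with its probe sets averaged (-0.06, adjusted p 0.778). Tgfbr2, a receptor of transforming growth factor beta, fell by 0.27, and Hgfac, the activator of hepatocyte growth factor, and Sort1, the neurotrophin co-receptor sortilin, each by 0.39. None of these 3 was called without the 3 litters (Tgfbr2 -0.31, adjusted p 0.0901, Hgfac -0.35, adjusted p 0.183, and Sort1 -0.52, adjusted p 0.0595). Hgfac lost its call without litter 1 or 4 at the high dose or litter 1, 2 or 3 at dose 0 (adjusted p 0.0541 to 0.0721), and Sort1 without litter 3 or 4 at the high dose or litter 1 or 4 at dose 0 (adjusted p 0.0565 to 0.0715).

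**Figure D5:**
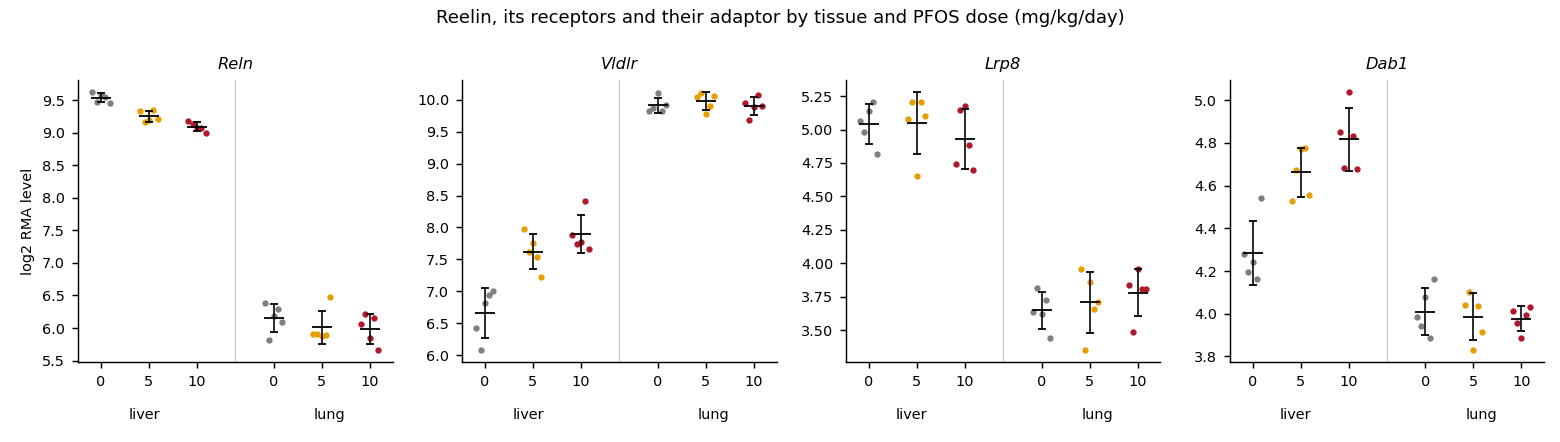
Log2 level of Reln, of the reelin receptor genes Vldlr and Lrp8 and of the adaptor gene Dab1 in every litter (points) by tissue and PFOS dose in mg/kg/day, with the mean and SD of the 5 litters (bars). In liver Reln is below dose 0 at both PFOS doses while Vldlr (mean 6.66, 7.62 and 7.90) and Dab1 (mean 4.29, 4.66 and 4.82) are above it, Lrp8 overlaps between doses, and in lung all 4 overlap.

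Other genes of the same cell classes were described by their lists. Of all genes tested in liver, 10.5% were called at the high dose, 5.22% lower. At the low dose 6.07% were called, 1.81% lower. The lists hold few genes, and whether their counts differ from these shares was not tested. Of 20 other stellate cell genes tested in liver, 3 fell and none rose at the high dose (median -0.15), and 2 fell at the low dose (median -0.20). Ecm1, a matrix protein that holds transforming growth factor beta inactive, was 7.61 to 7.88 at dose 0, 7.06 to 7.47 at the low dose and 6.95 to 7.47 at the high dose. It fell by 0.53 (SE 0.10, limma adjusted p 0.00282) and by 0.49 (SE 0.10, adjusted p 0.00709), with no overlap at either dose. Without the 3 litters high in stomach genes Ecm1 differed by -0.49 (adjusted p 0.0804) and -0.46 (adjusted p 0.136).

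Hhip and Col1a2 fell at the high dose (adjusted p 0.0482 and 0.0458), and Gfap, a filament of stellate cells and astrocytes, fell by 0.38 at the low dose (adjusted p 0.0264). Hhip kept its call without litter 1 at the high dose, and Col1a2 without litter 4 at dose 0, and each lost it without any other single litter of those 2 groups (adjusted p up to 0.12 and 0.116). Gfap lost it without litter 3 or 4 at the low dose or litter 1 or 2 at dose 0 (adjusted p 0.0598 to 0.0761). Without the 3 litters high in stomach genes Hhip differed by -0.41 (adjusted p 0.336) and Col1a2 by -0.15 (adjusted p 0.558) at the high dose, and Gfap by -0.32 (adjusted p 0.278) at the low dose.

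Of 18 smooth muscle contractile genes, 1 fell at the high dose (median -0.23), near the share of all genes called lower (5.22%). None was called at the low dose. The median at the high dose was -0.11, with none called, without the 3 litters high in stomach genes. The gene that fell was Myl9, a regulatory myosin light chain (-0.38, adjusted p 0.0486). Its call was lost without any 1 of litters 1, 3, 4 and 5 at the high dose or litters 2, 3 and 5 at dose 0 (adjusted p 0.0633 to 0.124). Myl9 differed by -0.16 (adjusted p 0.585) without all 3 litters high in stomach genes. None of 13 pericyte genes was called at either dose (median 0.01 at the high dose, where 3 had an unadjusted p under 0.05, against 24% of all genes), Angpt1, the ligand of the endothelial receptor Tie2, being the nearest (-0.45, adjusted p 0.0508, and 0.0436 without litter 1 at the high dose). Of 15 portal fibroblast and mesothelial genes, 2 fell at the high dose, Msln (-0.50, adjusted p 0.0167) and Entpd2 (-0.36, adjusted p 0.0396). The Msln difference was -0.30 (adjusted p 0.315) without the 3 livers high in stomach genes. Entpd2 lost its call without any 1 of litters 1, 2, 3 and 5 at the high dose or litters 2, 3 and 4 at dose 0 (adjusted p 0.0548 to 0.105), and differed by -0.33 (adjusted p 0.26) without the 3. None of 6 small leucine-rich proteoglycans, the family of Dcn, was called in liver (2 had an unadjusted p under 0.05 at the high dose). Lum differed by -0.31 (adjusted p 0.174), and by -0.10 (adjusted p 0.829) without the 3 livers high in stomach genes.

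Around Lrat, the retinoid genes moved in both directions: of 17 tested at the high dose, 2 rose and 1 fell, with a median of -0.01. At that dose 10.5% of all genes were called, 5.22% lower. Rdh11, a retinal reductase, rose by 0.76 (SE 0.10, limma adjusted p 6.03e-05) at the high dose and by 0.69 (SE 0.10) at the low dose, and every exposed litter (9.34 to 9.87) was above every litter at dose 0 (8.74 to 9.0). The other that rose was Aldh1a1, a retinaldehyde dehydrogenase (1.88), and the one that fell was Rdh10, a retinol dehydrogenase (-0.22, adjusted p 0.0308). Rdh10 lost its call without any 1 of litters 2, 3 and 5 at the high dose or litters 2, 3, 4 and 5 at dose 0 (adjusted p 0.0519 to 0.0798), and differed by -0.19 (adjusted p 0.301) without the 3 livers high in stomach genes, where Rdh11 and Aldh1a1 kept theirs. Around Rgs5, 1 of 5 genes of its family was called at the high dose: Rgs2, which acts on Gq-coupled receptors, was 7.0 to 7.58 at dose 0, 6.64 to 7.02 at the low dose and 6.17 to 6.80 at the high dose. It fell by 0.91 (SE 0.13, adjusted p 0.00015) at the high dose. In lung no gene of these lists was called at either dose.

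Some markers of neighbouring cell types of liver fell at the high dose, where 5.22% of all genes were called lower. The counts that follow are small and do not describe a cell type as a whole. The lymphatic endothelial, erythroid and cholangiocyte lists had median changes of -0.04, -0.13 and -0.07 at the high dose. At the high dose 1 of 11 endothelial genes fell, Stab2 of the sinusoid (-0.48, SE 0.09, limma adjusted p 0.00301), 2 of 10 Kupffer cell genes fell (Cd163 by 0.95 and Adgre1 by 0.37), and 2 of 8 hepatocyte genes fell (Apoa1 by 0.17 and Ahsg by 0.18). Of 10 granulocyte and mast cell genes, 3 fell: Elane by 0.37, Prtn3 by 0.41 and Ltf by 0.38. In that list 9 of 10 genes had an unadjusted p under 0.05, against 24% of all genes and 5 of the 10 members, and the median change was -0.32, or -0.38 without the 3 livers high in stomach genes. The calls of Adgre1, Apoa1, Elane, Prtn3 and Ltf were lost on leaving out single litters. Adgre1 lost its call without litter 2, 3 or 5 at the high dose or litter 2, 3 or 4 at dose 0 (adjusted p 0.0581 to 0.0775), and Apoa1 without litter 1 or 5 at the high dose or litter 2 or 4 at dose 0 (adjusted p 0.0524 to 0.0603). Elane lost it without litter 3 or 4, Prtn3 without litter 3, 4 or 5 and Ltf without litter 2, 3 or 5 at the high dose, and each without litter 1, 3 or 4 at dose 0 (adjusted p 0.0514 to 0.0902). Without the 3 livers Stab2, Cd163 and Elane kept their calls, and Adgre1, Apoa1, Ahsg, Prtn3 and Ltf did not (adjusted p up to 0.179). The part of these cell types in the falls of Reln, Dcn and Tagln was not tested.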

How the data were processed

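Per the submitters' processing notes, RMA gave the log2 values that the authors deposited, 1 per probe set and array; the sources used here name neither its version nor the arrays that entered each run. Array means were 5.08 to 5.10, so levels are relative to the array. RMA compresses differences of dim probe sets. Arrays give no counts, and the 5 litters per group limit the precision.

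Probe sets were named from the platform's annotation: 34945 had 1 symbol, 932 several and 9160 none, and 64 control probe sets were dropped. A gene was its 1-symbol probe set with the highest mean over 30 arrays. Probe sets above an array's 40th percentile on at least 5 of 15 arrays of a tissue were tested with limma 3.58.1 in R 4.3.3 (lmFit, eBayes, two-sided, Benjamini-Hochberg over all genes tested): 1 fit per tissue for the doses, and 1 fit of 30 arrays for tissues and for the difference of responses. Covariation used two-sided permutation tests with 100000 resamples (numpy 2.4.6, scipy 1.17.1, pandas 2.3.3); figures used matplotlib 3.10.9. The fits were tested on simulated data.

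The members, lists and tests were chosen with earlier results of these data known. All 10 members are named; of a list, up to 4 genes, the called by size of change, otherwise by smallest p. Genes with other reasons (Actg2 and Krt19 among them) were named after their values were seen, as were the stomach genes and the fits without liver control litters 2, 3 and 5, without litter 1 of every group, with litter as a random block, and with stomach or cardiac muscle covariates. Other alternatives changed the filter, normalization, probe set choice, array weights, variance prior, covariates, samples in the fit and the replicate block, and left out each litter in turn.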

Additional observations from a re-analysis of the deposited data

Results flagged for a closer look

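In 3 of 72 groups of 5 litters 1 litter lay far from the other 4, and chance alone flags about 1 group in 20. Reln in lung at 5 mg/kg/day was 6.47 in litter 5, and 5.88 to 5.91 in the other 4. Hgf in liver at 5 mg/kg/day was 6.0 in litter 1, and 6.24 to 6.32 in the others. Vldlr in liver at 10 mg/kg/day was 8.41 in litter 4, and 7.67 to 7.88 in the others.

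The liver change minus the lung change passed the limma test for genes around the members, though for none of the members themselves with all litters. At 10 mg/kg/day it was 1.25 for Vldlr, 0.56 for Dab1, -0.95 for Rgs2, -0.59 for Ecm1, 1.87 for Aldh1a1 and 0.71 for Rdh11. At 5 mg/kg/day it was 0.90 for Vldlr, 0.40 for Dab1, -0.61 for Rgs2, -0.66 for Ecm1 and 0.63 for Rdh11. Without the 3 control livers high in stomach genes the difference of Ecm1 was not called at either dose (adjusted p 0.108 at 10 and 0.0837 at 5 mg/kg/day). Those of Dab1 and Rgs2 at 5 mg/kg/day lay close to the threshold (adjusted p 0.0484 and 0.0444).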

How the results depend on the processing

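The count of members called in liver at 10 mg/kg/day was 3, and it was 1, always Reln, with only the 2 groups compared, with both tissues in 1 fit, without control litters 2, 3 and 5, and with the stomach covariate. The count at 5 mg/kg/day was 2. It was 1 with all probe sets averaged, with only the 2 groups compared and with the stomach covariate, 0 with both tissues in 1 fit and without control litters 2, 3 and 5, and 1 to 2 on leaving out 1 litter. For the difference of responses the count was 0, and it was 1 (Dcn) without litter 1 of every group at either dose, and 0 to 1 at 5 mg/kg/day on leaving out 1 litter. Of the covarying pairs, 5 by Pearson's r became 2 by Spearman's rho. The tissue difference of Des was 0.0732 and not called with the cardiac muscle covariate, whose level does not overlap between the tissues. Reln at 10 mg/kg/day kept its call on leaving out each litter (-0.47 to -0.42), and so did Dcn (-0.36 to -0.26). Over 390 alternatives of the 15 called member results, 32 lost the call and 1 changed sign; of 2091 alternatives of the 75 others, 6 gained a call. Apart from the altered fits themselves, the cause was not tested.

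Replicate numbers are shared between groups, and the labels do not say that they pair litters. Deviations of same-numbered litters between doses had a median correlation of -0.01 in liver, with 4 of 15 pairs over 0.1. For different numbers these were -0.002 and 15 of 60. In lung the same numbers gave -0.02 and 3 of 15, against -0.01 and 15 of 60. No pairing across doses was seen in these values. With the replicate block the adjusted p at 10 mg/kg/day was 0.000343 for Reln, 0.0444 for Tagln and 0.0275 for Dcn, with the same calls, while Hhip (adjusted p 0.0659), Hgfac (0.0565), Apoa1 (0.0536) and Ltf (0.0630) lost theirs. Between liver and lung of a dose the same numbers had a median correlation of 0.14, with 11 of 15 pairs over 0.1, against -0.04 and 2 of 60 for different numbers, a hint from the data only. With litter as a random block across the tissues, all 10 members stayed called between unexposed liver and lung and none was called for the difference of responses, where Reln at 10 mg/kg/day had an adjusted p of 0.312, and of 0.396 with the replicate block.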
